A study of Mus musculus with 24 samples.

Results

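Nr2f1 and Nr2f2 encode COUP-TFI and COUP-TFII, a pair of orphan nuclear receptors. They were taken by gene name from a table of read counts over 51697 named genes, so the members are 2 genes, and both passed the filter on low counts. RNA was sequenced from F123, a mouse embryonic stem (ES) cell line in which the titles mark CTCF with an auxin-inducible degron (AID) in every sample, controls included. CTCF is a zinc-finger protein that binds DNA and anchors chromatin loops, and the series asks how CTCF near promoters bears on genes driven by distant enhancers. Auxin leads to destruction of the tagged protein and was given from a 500 mM stock, 1 µl to each ml of culture medium.

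The 12 groups had 2 libraries each. Undifferentiated cells were taken at 0, 24, 48 and 96 h of auxin. Cells differentiating into neural progenitors were taken on days 2, 4 and 6 with auxin and, as their controls, on the same days without it. Day 4 washout cells lost auxin on day 4 and were collected on day 6, and day 6 washout cells lost it on day 6 and were collected on day 8. No label says that replicates were separate cultures, and no clone is named, so the p-values below rest on a spread that may be technical. Auxin given to cells without the degron was not analysed here, so auxin and CTCF loss cannot be told apart.

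COUP-TFs bind DNA as dimers at repeats of the motif AGGTCA and mostly repress transcription, in part by competing with retinoid receptors for such sites. Both genes are known to be induced by retinoic acid in differentiating stem cells. In the embryo Nr2f1 is known for patterning the cortex and sensory neurons, and Nr2f2 for veins, lymphatic vessels, mesenchyme and migrating interneurons.

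In the GENCODE vM21 annotation of mm10, Nr2f1 (ENSMUSG00000069171.14) lies on the minus strand at chr13:78188973-78199757, with 6 transcripts and 5.09 kb of merged exons. Nr2f2 (ENSMUSG00000030551.14) lies on the minus strand at chr7:70351944-70366735, with 6 transcripts and 8.62 kb of merged exons. The annotated transcripts of both genes share 39 words of 31 bases out of 5090 in Nr2f1. Their longest identical run is 59 bases, so few reads could be exchanged between these paralogs. Because both genes changed with auxin, the 300 bases around the start given by RefSeq (GRCm38.p6, 250 before and 50 after) are shown for each. Capitals mark CG dinucleotides, the sites that DNA methylation acts on. The Nr2f1 window is chr13:78198824-78199123 and the Nr2f2 window chr7:70366697-70366996, both read on the minus strand.
Nr2f1: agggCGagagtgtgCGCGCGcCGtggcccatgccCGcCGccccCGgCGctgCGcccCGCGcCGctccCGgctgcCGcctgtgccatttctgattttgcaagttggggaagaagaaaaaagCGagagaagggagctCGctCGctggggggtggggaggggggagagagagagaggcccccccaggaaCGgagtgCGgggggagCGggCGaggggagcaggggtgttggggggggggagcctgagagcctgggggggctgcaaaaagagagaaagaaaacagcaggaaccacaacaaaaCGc
Nr2f2: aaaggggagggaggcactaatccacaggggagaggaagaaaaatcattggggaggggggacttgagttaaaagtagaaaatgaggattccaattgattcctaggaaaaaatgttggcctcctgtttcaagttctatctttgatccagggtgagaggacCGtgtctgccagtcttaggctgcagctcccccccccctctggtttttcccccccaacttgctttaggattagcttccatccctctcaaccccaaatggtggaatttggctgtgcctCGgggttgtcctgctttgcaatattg
The Nr2f1 window held 23 CG dinucleotides at 68% GC, and the Nr2f2 window held 2 at 49.7% GC. The median over 32851 RefSeq promoter windows was 7 at 52.7% GC. The last 50 bases of the Nr2f2 window lay in full in 0 of its GENCODE transcripts, and those of the Nr2f1 window in 1. RefSeq gives a second Nr2f1 start, whose window held 4 CG dinucleotides at 43% GC. Other starts of the transcripts were not examined, and which starts these cells use was not tested. The motif AGGTCA, searched on both strands, occurred in 16.255% of all windows and in none of these 3. Its direct repeats with spacers of 1, 2 or 5 bases contain it and so were also without a match, and the search says nothing of sites outside these windows.

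Libraries held 24696374 to 29909368 counts in replicate 1 of the ES groups, 51686150 to 61681404 in replicate 2, and 51053184 to 72048935 in the 16 others. Replicates differed more in ES groups, with an SD of their log2 ratios over genes of 0.539 to 0.654, against 0.3 in day 2 auxin cells and 0.166 to 0.191 in the other 7 groups. ES libraries and the 16 others were therefore fitted apart with edgeR, and only comparisons that need both used all 24. Ctcf mRNA averaged 195 to 282 CPM over the 12 groups, which does not check the depletion, since the degron acts on the protein. Levels below are in CPM, read counts relative to the scaled library total, given for replicate 1 and then replicate 2. The ± sign gives the standard error of a log2 fold change, with n = 2 per group. The word changed is kept for genes whose adjusted p was below 0.05, with Benjamini-Hochberg adjustment over all genes of a comparison. By this rule Ctcf mRNA was higher under auxin on day 4 (0.29 ± 0.08, adjusted p = 0.018) and day 6 (0.34 ± 0.08, adjusted p = 0.0054). It was lower in day 4 washout than in day 6 auxin cells (−0.30 ± 0.08, adjusted p = 0.012). None of these Ctcf differences passed with all 24 libraries in 1 fit (adjusted p = 0.4, 0.19 and 0.22).

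The COUP-TF genes were nearly silent in ES cells and became abundant between days 2 and 4 of differentiation. In ES cells at 0 h, Nr2f1 had 0.0789 and 0.548 CPM, from 2 and 27 counts, and Nr2f2 had 1.38 and 1.32 CPM. In day 2 controls Nr2f1 had 2.98 and 2.51 CPM and Nr2f2 had 3.90 and 3.98 CPM. In day 4 controls Nr2f1 had 59.3 and 61.2 CPM and Nr2f2 had 103 and 102 CPM. The highest levels of both genes were in day 6 controls, at 115 and 123 CPM for Nr2f1 and 161 and 174 CPM for Nr2f2.

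**Figure D1:**
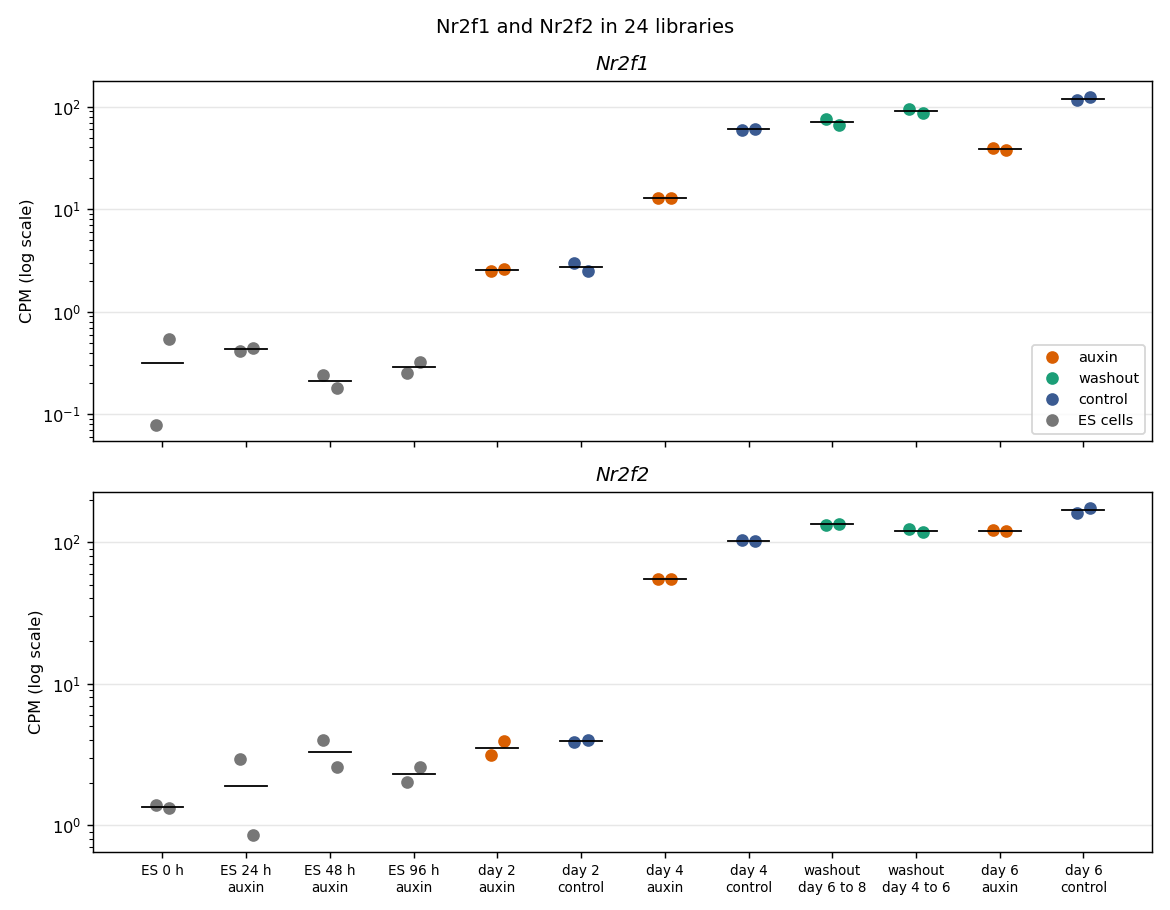
CPM of Nr2f1 (top) and Nr2f2 (bottom) in each of 24 libraries on a log axis, with points for libraries and a bar for the mean of each group (n = 2). Both genes stay below 4.0 CPM up to day 2, and from day 4 on the auxin libraries lie below the controls of the same day.

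Day 2 controls differed from ES cells at 0 h by a log2 fold change of 2.89 ± 0.32 for Nr2f1 (adjusted p = 6.3e-06) and 1.55 ± 0.34 for Nr2f2 (adjusted p = 0.004). Of all genes tested there, 18.2% changed. The Nr2f1 value rests on few ES counts and was 2.32 with replicate 1 at 0 h left out and 5.09 with replicate 2 left out. The main increase followed between days 2 and 4. Day 4 controls exceeded day 2 controls by 4.48 ± 0.10 for Nr2f1 (22.3-fold, adjusted p = 3.9e-15) and 4.71 ± 0.09 for Nr2f2 (26.2-fold, adjusted p = 8.2e-16). Although 52.1% of genes changed between those days, only 1.11% of genes rose more than Nr2f1 and 0.939% more than Nr2f2. From day 4 to day 6 the gains were smaller, at 0.99 ± 0.08 for Nr2f1 (adjusted p = 7.7e-08) and 0.73 ± 0.07 for Nr2f2 (adjusted p = 8.8e-07), where 26.7% of genes changed. The last Nr2f2 gain had an adjusted p of 0.19 when all 24 libraries shared 1 estimate of spread, a fit in which 5.11% of genes changed.

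Ordered by mean level, Nr2f1 was highest in day 6 controls, followed by day 4 washout, day 6 washout, day 4 control, day 6 auxin and day 4 auxin cells. Each of these groups had both libraries above those of the next. Day 2 control and day 2 auxin cells overlapped at 2.51 to 2.98 CPM, and the ES groups followed at 0.0789 to 0.548 CPM. The order for Nr2f2 was day 6 control, day 6 washout, day 6 auxin, day 4 washout, day 4 control and day 4 auxin cells. Day 6 auxin and day 4 washout cells overlapped there, at 118 to 123 CPM. The day 2 groups and ES cells at 48 h also overlapped for Nr2f2, at 2.60 to 3.98 CPM.

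Auxin lowered both COUP-TF genes on days 4 and 6, Nr2f1 to a smaller share of control than Nr2f2. On day 2 Nr2f1 had 2.52 and 2.61 CPM in auxin cells, against 2.98 and 2.51 CPM in controls. Nr2f2 had 3.12 and 3.97 CPM in auxin cells, against 3.90 and 3.98 CPM in controls. The libraries of both conditions overlapped for both genes, while 49.2% of all genes tested had the conditions wholly apart in either direction. The log2 fold changes on day 2 were −0.08 ± 0.12 for Nr2f1 (95% interval −0.34 to 0.18, adjusted p = 0.72) and −0.13 ± 0.10 for Nr2f2 (95% interval −0.35 to 0.08, adjusted p = 0.42). On that day 18.3% of all genes changed, and 0 of the 2 members did. Without replicate 2 of the day 2 auxin cells, Nr2f2 differed by −0.33 ± 0.12 (adjusted p = 0.042).

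On day 4 Nr2f1 had 12.9 and 13.0 CPM in auxin cells, against 59.3 and 61.2 CPM in controls. Nr2f2 had 54.7 and 55.2 CPM in auxin cells, against 103 and 102 CPM in controls. The auxin libraries lay below both control libraries for each gene, but 63.8% of all genes tested had the conditions wholly apart in either direction. Nr2f1 fell to 21.4% of control (log2 fold change −2.22 ± 0.09, adjusted p = 3.6e-11) and Nr2f2 to 53.5% (−0.90 ± 0.07, adjusted p = 9.1e-08). Both members were thus among the 23.5% of genes that changed. Of all genes tested, 1.62% fell more than Nr2f1 and 7.4% more than Nr2f2.

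On day 6 Nr2f1 had 39.4 and 37.8 CPM in auxin cells, against 115 and 123 CPM in controls. Nr2f2 had 121 and 120 CPM in auxin cells, against 161 and 174 CPM in controls. Again no auxin library reached a control library, on a day when 67.8% of all genes tested had the conditions wholly apart. Nr2f1 was at 32.1% of control (−1.64 ± 0.08, adjusted p = 2.9e-10) and Nr2f2 at 71.3% (−0.49 ± 0.07, adjusted p = 4.6e-05), on a day when 29.2% of genes changed. With all 24 libraries in 1 fit Nr2f1 kept its call on both days, while Nr2f2 had an adjusted p of 0.11 on day 4 and 0.46 on day 6. In that fit 3.37% of genes changed on day 4 and 6.56% on day 6.

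Levels still climbed under auxin. Day 4 auxin cells exceeded day 2 auxin cells by 2.33 ± 0.11 for Nr2f1 (5.04-fold, adjusted p = 1.7e-11) and 3.94 ± 0.09 for Nr2f2 (15.4-fold, adjusted p = 8.4e-15), and 49.9% of genes changed. Day 6 auxin cells exceeded day 4 auxin cells by 1.58 ± 0.08 for Nr2f1 (adjusted p = 8e-10) and 1.14 ± 0.07 for Nr2f2 (adjusted p = 5.3e-09), and 26.1% of genes changed. The auxin effect on day 4 was more negative than that on day 2 by −2.14 ± 0.15 for Nr2f1 (adjusted p = 1.9e-07) and −0.77 ± 0.12 for Nr2f2 (adjusted p = 0.00077), and 9.9% of genes passed this test of a difference. The effect on day 6 was smaller in size than that on day 4, by 0.59 ± 0.11 for Nr2f1 (adjusted p = 0.0067) and 0.41 ± 0.10 for Nr2f2 (adjusted p = 0.026), and 4.24% of genes passed. The Nr2f2 difference had an adjusted p of 0.078 to 0.16 without any single one of 7 of the 8 libraries, and with all 24 libraries in 1 fit neither gene passed (adjusted p = 1.0 for each) and 0.126% of genes did. In the same fit the difference between days 4 and 2 passed for Nr2f1 (adjusted p = 0.0064) and not for Nr2f2 (0.99), with 0.306% of genes passing.

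**Figure D2:**
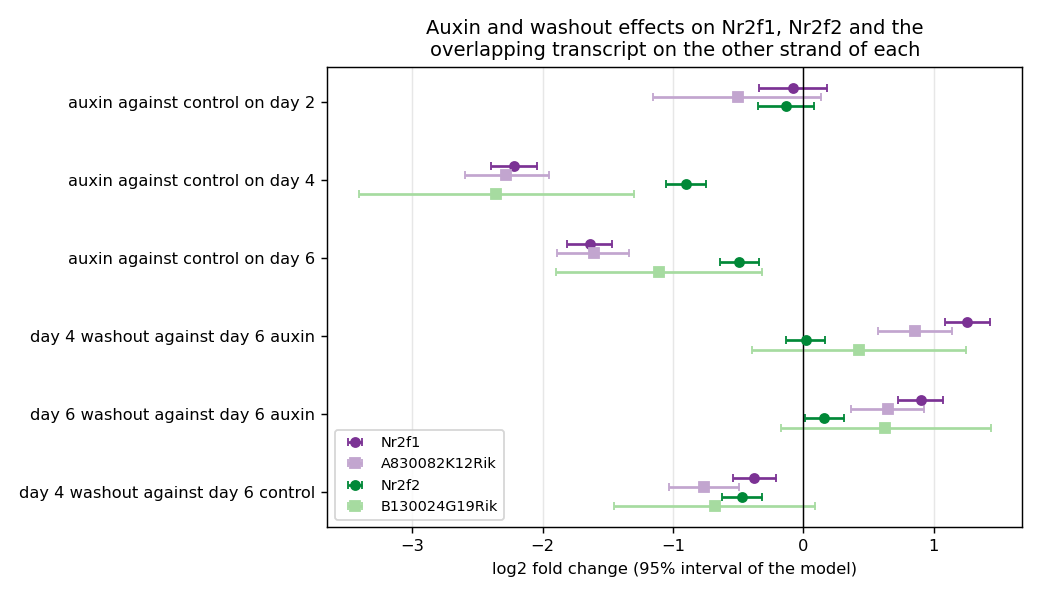
Log2 fold changes with 95% intervals of Nr2f1, Nr2f2 and the transcript that overlaps each on the other strand, in 6 comparisons (B130024G19Rik is left out on day 2, where counts were 0 to 5). Nr2f1 lies left of Nr2f2 on days 4 and 6 of auxin and right of it in both washout groups against day 6 auxin.

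Removal of auxin on day 4 was followed by a rise of Nr2f1 and no detected change of Nr2f2 relative to cells kept in auxin until day 6. Nr2f1 had 95.8 and 86.4 CPM in day 4 washout cells, against 39.4 and 37.8 CPM in day 6 auxin cells. The rise was 2.39-fold (log2 fold change 1.26 ± 0.08, adjusted p = 7.8e-09), in a comparison where 34.6% of genes changed. Nr2f2 had 123 and 118 CPM in day 4 washout cells, against 121 and 120 CPM in day 6 auxin cells, so the libraries overlapped. Its log2 fold change was 0.02 ± 0.07 (95% interval −0.13 to 0.17, adjusted p = 0.87). This comparison shares its day 6 auxin libraries with the auxin comparison of day 6.

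Day 4 washout cells stayed below day 6 controls for both genes. Nr2f1 was at 76.9% of control (−0.38 ± 0.08, adjusted p = 0.0012) and Nr2f2 at 72.2% (−0.47 ± 0.07, adjusted p = 7.3e-05), where 33.9% of genes changed. Neither passed with all 24 libraries in 1 fit (adjusted p = 0.4 for each), where 6.86% of genes did. Against day 4 auxin cells, which were harvested 2 days earlier, day 4 washout cells were higher by 2.84 ± 0.09 for Nr2f1 (7.15-fold, adjusted p = 3.8e-13) and 1.16 ± 0.07 for Nr2f2 (2.23-fold, adjusted p = 1.3e-09), and 45.2% of genes changed.

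Day 6 washout cells were harvested on day 8, for which no control was analysed here, so time and washout cannot be told apart. Nr2f1 had 75.7 and 66.9 CPM in day 6 washout cells, against 39.4 and 37.8 CPM in day 6 auxin cells, a rise of 1.87-fold (0.90 ± 0.08, adjusted p = 2e-07). Nr2f2 had 133 and 134 CPM in day 6 washout cells, against 121 and 120 CPM in day 6 auxin cells. That Nr2f2 difference did not pass (0.16 ± 0.07, 95% interval 0.01 to 0.31, adjusted p = 0.078), although DESeq2 gave an adjusted p of 0.026. In this comparison edgeR called 40.3% of genes and DESeq2 39.7%. Nr2f1 was lower in day 6 than in day 4 washout cells (−0.36 ± 0.08, adjusted p = 0.0054), where 13.2% of genes changed, but had an adjusted p of 0.1 without replicate 1 of the day 4 washout cells and 0.13 without replicate 2 of the day 6 washout cells. Nr2f2 did not pass there (0.14 ± 0.07, 95% interval −0.01 to 0.29, adjusted p = 0.22).

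Undifferentiated cells showed no called auxin effect on either gene, at levels so low that the intervals are wide. Nr2f1 had 0.417 and 0.442 CPM at 24 h, 0.241 and 0.180 CPM at 48 h, and 0.254 and 0.323 CPM at 96 h of auxin, from 6 to 26 counts per library. Nr2f2 had 2.96 and 0.849 CPM at 24 h, 3.98 and 2.60 CPM at 48 h, and 2.03 and 2.57 CPM at 96 h. For Nr2f2 both libraries at 48 h and at 96 h lay above both at 0 h, without a called difference, and for Nr2f1 every time point overlapped 0 h. How many of all genes lie apart in this way was not counted in ES cells, so the separation is description only. Against 0 h, Nr2f1 differed by −0.19 ± 0.86 at 96 h (95% interval −2.14 to 1.77, adjusted p = 0.99) and Nr2f2 by 0.76 ± 0.61 (95% interval −0.63 to 2.15, adjusted p = 0.82). The largest Nr2f2 difference, at 48 h, was 1.27 ± 0.62 (95% interval −0.13 to 2.67, adjusted p = 1.0, and 0.37 with a replicate block).

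In the 8 ES libraries edgeR called 0 genes at 24, 48 and 96 h, 0.0% in each case, and DESeq2 called 76, 156 and 367 (0.373%, 0.766% and 1.8%). At an unadjusted p below 0.05 there were 548, 1039 and 1767 genes (2.69%, 5.1% and 8.68%). A fit with a replicate block called 23, 40 and 621 genes (0.113%, 0.196% and 3.05%), neither COUP-TF gene among them. The auxin effect on day 4 of differentiation minus that of 96 h in ES cells was −1.90 ± 0.48 for Nr2f1 (adjusted p = 0.068) and −1.68 ± 0.45 for Nr2f2 (adjusted p = 0.084), and 1.23% of genes passed. Both genes passed this test without a filter on low counts (adjusted p = 0.0052 and 4.4e-05) and with DESeq2 (adjusted p = 0.0017 and 0.013), where 1.97% and 3.6% of genes passed. The Nr2f1 difference was −4.10 when replicate 2 at 0 h was left out (adjusted p = 0.00053) and −1.33 when replicate 1 was (adjusted p = 0.044).

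The balance of the paralogs was followed as the ratio of Nr2f1 to Nr2f2 CPM per kb of exon within a library. In day 2 auxin cells it was 1.37 and 1.11, against 1.29 and 1.07 in day 2 controls, so the libraries overlapped. On day 4 it was 0.400 and 0.399 in auxin cells, against 0.976 and 1.02 in controls. On day 6 it was 0.550 and 0.533 in auxin cells, against 1.21 and 1.20 in controls. Day 4 washout cells had ratios of 1.32 and 1.24, above both day 6 groups, and day 6 washout cells had 0.965 and 0.844, between them.

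**Figure D3:**
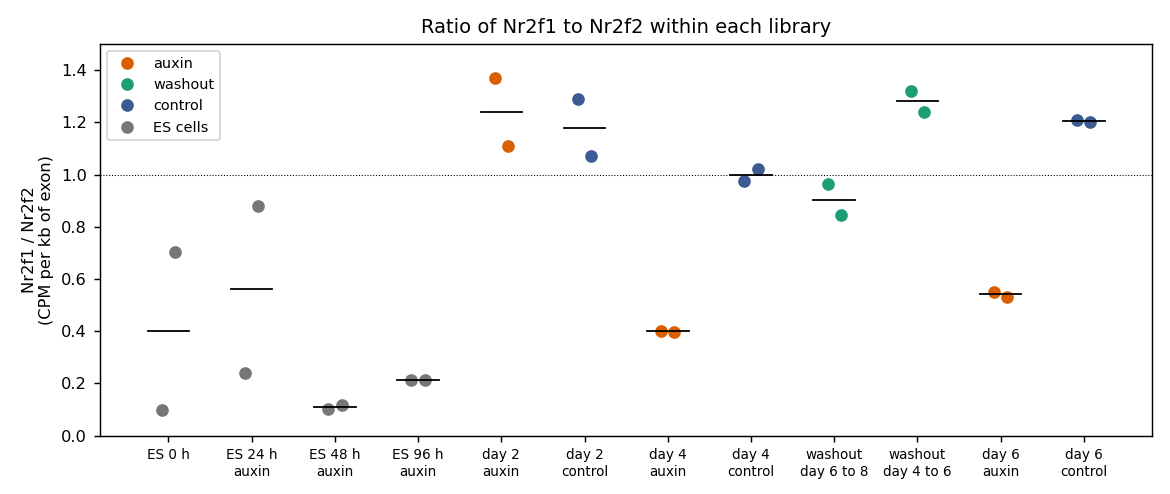
Ratio of Nr2f1 to Nr2f2, each as CPM per kb of exon, in each of 24 libraries, with a bar for the mean of each group and a dotted line at equal levels. Auxin libraries of days 4 and 6 lie at 0.399 to 0.550, below the controls and both washout groups, and the ES ratios rest on 2 to 27 Nr2f1 counts.

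Per kb, the genes stood nearly level in day 4 controls, at 11.8 CPM per kb for Nr2f1 and 11.9 for Nr2f2. In day 4 auxin cells the levels were 2.55 and 6.37 CPM per kb. The mean auxin minus control difference of the log2 ratio over days 2, 4 and 6 was −0.801 (exact permutation test of the auxin label within days, two-sided, p = 0.0463 over 216 arrangements, smallest possible p = 0.00926). For days 4 and 6 alone the same exact test gave −1.24 with p = 0.0556, the smallest that their 36 arrangements allow. The ratio was chosen for this test after the levels had been seen.

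A transcript on the other strand overlaps the start of each gene. A830082K12Rik (antisense, chr13:78198017-78279391, plus strand) begins 1.7 kb inside Nr2f1, with 123 of its 8255 exon bases over Nr2f1 exons. B130024G19Rik (processed transcript, chr7:70364910-70489972, plus strand) begins 1.8 kb inside Nr2f2, with 643 of its 9496 exon bases over Nr2f2 exons. The strand setting of the counting is not given in the sources used here, so reads from the overlaps cannot be told apart.

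A830082K12Rik had 2.75 and 1.90 CPM in day 4 auxin cells, against 11.5 and 10.7 CPM in day 4 controls. It fell to 20.6% of control on day 4 (log2 fold change −2.28 ± 0.15, adjusted p = 1.2e-08) and to 32.6% on day 6 (−1.61 ± 0.13, adjusted p = 7.6e-08), close to the shares of Nr2f1. In day 4 washout cells it was higher than in day 6 auxin cells (0.86 ± 0.13, adjusted p = 0.00011). B130024G19Rik had 2 and 22 counts in day 4 auxin cells, against 59 and 68 in day 4 controls, and fell on day 4 (−2.36 ± 0.49, adjusted p = 0.0024) and day 6 (−1.11 ± 0.37, adjusted p = 0.034). Its washout difference from day 6 auxin cells did not pass (0.43 ± 0.38, adjusted p = 0.43). With all 24 libraries in 1 fit, B130024G19Rik passed on neither day (adjusted p = 0.12 and 0.47), and A830082K12Rik kept its calls on days 4 and 6 but not in the washout (adjusted p = 0.13).

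Of the genes starting within 2 Mb of either COUP-TF gene, few had enough counts for a test. Around Nr2f1, 20 of 43 annotated genes were in the table and 5 had enough counts, A830082K12Rik included. Of these 5, 0 were higher and 3 lower under auxin on day 2, 0 higher and 2 lower on day 4, and 0 higher and 4 lower on day 6. Over all genes the shares higher and lower were 9.84% and 8.43% on day 2, 11.8% and 11.8% on day 4, and 14% and 15.2% on day 6. Fam172a, 498 kb downstream of the Nr2f1 start, had 25.1 and 25.1 CPM in day 4 auxin cells, against 27.5 and 23.9 CPM in day 4 controls, and did not pass (−0.04 ± 0.08, adjusted p = 0.78). It was lower on day 2 (−0.53 ± 0.08, adjusted p = 0.00026), when Nr2f1 did not pass, and on day 6 (−0.38 ± 0.08, adjusted p = 0.0018). Slf1, which encodes a DNA repair factor 1064 kb downstream, was lower on day 2 (−0.28 ± 0.08, adjusted p = 0.018) and did not pass on days 4 and 6 (0.09 ± 0.08 and −0.10 ± 0.08, adjusted p = 0.49 and 0.4). Its neighbour 2210408I21Rik was lower on days 2, 4 and 6 (−0.87 ± 0.16, −0.88 ± 0.15 and −0.79 ± 0.15, adjusted p = 0.00082, 0.00037 and 0.00061), and so was Mctp1 on day 6, at under 0.72 CPM in every library (−1.64 ± 0.54, adjusted p = 0.031).

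Around Nr2f2, 49 of 58 annotated genes were in the table and 7 had enough counts. Under auxin 0 were higher and 2 lower on day 2, 1 was higher and 2 lower on day 4, and 2 higher and 2 lower on day 6. Arrdc4, 1618 kb downstream of the Nr2f2 start and coding for an arrestin-domain protein, was lower on day 2 (−0.79 ± 0.07, adjusted p = 1.4e-06), day 4 (−0.47 ± 0.07, adjusted p = 0.00016) and day 6 (−0.81 ± 0.07, adjusted p = 3.1e-07). Mctp2, 1940 kb upstream, was lower on day 2 (−0.35 ± 0.11, adjusted p = 0.039) and higher on days 4 and 6 (0.49 ± 0.11 and 0.50 ± 0.12, adjusted p = 0.0042 and 0.0034). The noncoding Gm44689 was higher on day 6 at under 0.38 CPM in every library (2.42 ± 0.71, adjusted p = 0.017).

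**Figure D4:**
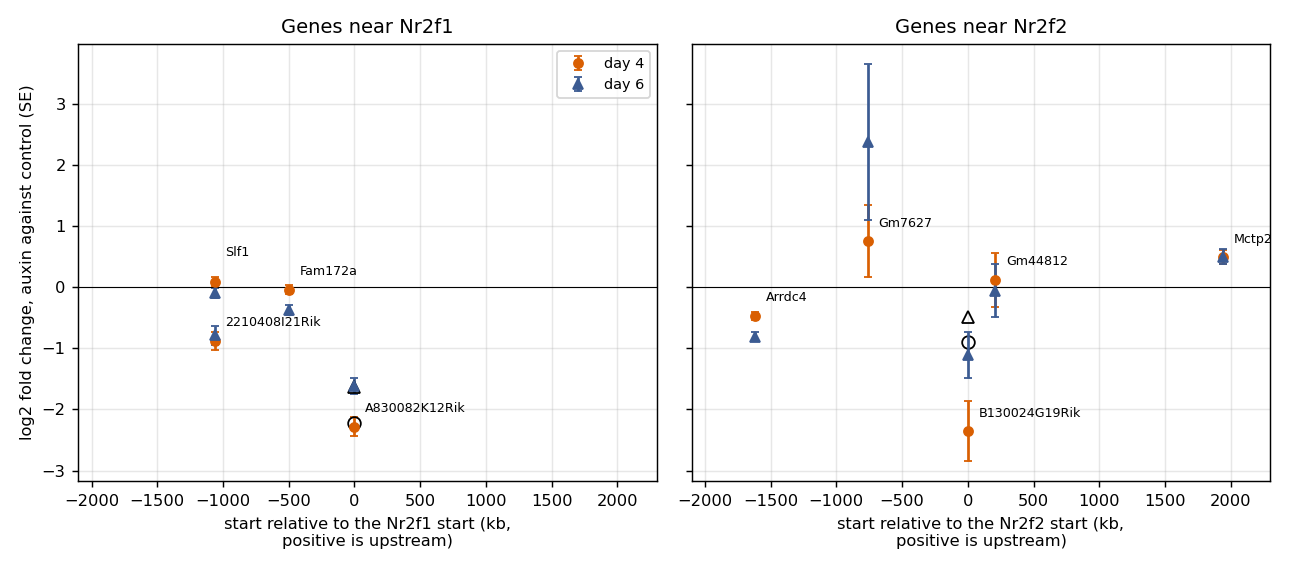
Auxin against control log2 fold change with SE on days 4 and 6, by the distance of each gene's start from that of Nr2f1 (left) or Nr2f2 (right), for neighbours that reached 1 CPM in any library. Open black symbols are the COUP-TF genes, and the transcripts that overlap them, whose starts lie 1.7 and 1.8 kb away, are the neighbours with the largest decreases.

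Among the 5 relatives in the NR2 family, auxin lowered Nr2c1 and passed for no other member on days 2, 4 and 6. Over all genes 18.3% changed on day 2, 23.5% on day 4 and 29.2% on day 6, so 1 of 5 is near that background. Nr2c1, which encodes the orphan receptor TR2, had 23.2 and 21.2 CPM in day 4 auxin cells, against 32.4 and 33.7 CPM in day 4 controls (−0.59 ± 0.08, adjusted p = 2.8e-05). Nr2f6, which encodes the third COUP-TF-like receptor, had 11.3 and 11.6 CPM in day 4 auxin cells, against 14.2 and 18.4 CPM in day 4 controls (−0.51 ± 0.18, adjusted p = 0.056). In day 4 washout cells Nr2f6 had 18 CPM in both libraries, against 6.11 and 4.25 CPM in day 6 auxin cells, and rose (1.81 ± 0.20, adjusted p = 3.1e-06). It also exceeded day 6 controls, at 6.70 and 7.63 CPM (1.34 ± 0.19, adjusted p = 4.4e-05). Nr2e1 and Nr2e3 were near 0.

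The 18 retinoid genes, which make, break down, carry or sense retinoic acid, moved both ways under auxin. On day 2, 8 were higher and 4 lower, on day 4, 6 were higher and 6 lower, and on day 6, 6 were higher and 10 lower. Over all genes the shares higher and lower were 9.84% and 8.43% on day 2, 11.8% and 11.8% on day 4, and 14% and 15.2% on day 6. Their median log2 fold change was −0.12 on day 4 and −0.23 on day 6, beside 0.00 and 0.01 over all genes. Of the synthesis enzymes, Aldh1a3 had 4.49 and 3.98 CPM in day 4 auxin cells, against 0.769 and 0.667 CPM in day 4 controls, and rose on both days (2.55 ± 0.22 and 2.45 ± 0.22, adjusted p = 2.7e-07 and 2.1e-07). Aldh1a2 had 38.8 and 39.0 CPM in day 4 auxin cells, against 10.4 and 11.8 CPM in day 4 controls, and rose (1.80 ± 0.10, adjusted p = 1.1e-09). On day 6 it was lower instead, with 42.0 and 45.2 CPM in auxin cells, against 110 and 117 CPM in controls (−1.39 ± 0.09, adjusted p = 5.3e-09).

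The cytosolic retinoic acid carriers fell on days 4 and 6. On day 2 Crabp1 was higher instead, with 21.7 and 18.7 CPM in day 2 auxin cells, against 11.0 and 11.3 CPM in day 2 controls (0.87 ± 0.13, adjusted p = 0.00015), while Crabp2 was already lower (−0.91 ± 0.09, adjusted p = 3.6e-06). Crabp1 was at −1.48 ± 0.14 on day 4 and −2.52 ± 0.14 on day 6 (adjusted p = 5.2e-07 and 1.3e-09), and Crabp2 at −1.26 ± 0.09 and −1.35 ± 0.09 (adjusted p = 1.8e-08 and 5.9e-09). The receptor gene Rarb, itself a standard retinoic acid target, had 164 and 160 CPM in day 4 auxin cells, against 192 and 187 CPM in day 4 controls (−0.23 ± 0.05, adjusted p = 0.0046). Cyp26a1 and Cyp26b1 are known to be induced by retinoic acid and encode enzymes that break it down. Both were higher on day 4 (0.31 ± 0.08 and 0.43 ± 0.07, adjusted p = 0.0088 and 0.00015). Rarb, Cyp26a1 and Cyp26b1 were chosen after their values were seen, so they are given as a description. Without auxin, 11 of the 18 rose and 0 fell between ES cells and day 2 (all genes 10.3% and 7.91%), and 13 rose and 3 fell between days 2 and 4 (all genes 27.2% and 24.8%).

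Of 6 corepressors and binding partners of COUP-TFs, 0 were higher and 1 lower on day 4, and 1 was higher and 2 lower on day 6. A share of 11.8% each way on day 4, and of 14% higher and 15.2% lower on day 6, was called over all genes, so the day 4 count is near that background. Bcl11a, known as the COUP-TF-interacting protein CTIP1, had 0.459 and 0.653 CPM in day 4 auxin cells, against 1.82 and 2.21 CPM in day 4 controls (−1.85 ± 0.26, adjusted p = 5.2e-05), and was lower on day 6 as well (−0.89 ± 0.15, adjusted p = 0.00031). Zfpm2, which encodes the cofactor FOG2, was lower on day 6 (−1.44 ± 0.28, adjusted p = 0.0008). Zfpm1 was slightly higher on day 6 (0.23 ± 0.07, adjusted p = 0.023).

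Of 15 genes described elsewhere as COUP-TF targets, 5 were higher and 6 lower on day 4, and 3 higher and 9 lower on day 6, where 11.8% and 11.8% of all genes on day 4 and 14% and 15.2% on day 6 were higher and lower. The median was −0.07 on day 4 and −0.59 on day 6, beside 0.00 and 0.01 over all genes. Pax6, a progenitor transcription factor, had 15.1 and 13.9 CPM in day 4 auxin cells, against 64.7 and 66.1 CPM in day 4 controls (−2.18 ± 0.08, adjusted p = 3.6e-11). Hey2, a Notch effector that COUP-TFII is known to repress in veins, had 6.38 and 5.66 CPM in day 4 auxin cells, against 0.886 and 0.743 CPM in day 4 controls, and rose (2.88 ± 0.25, adjusted p = 2.3e-07). It stayed higher on day 6 (2.34 ± 0.22, adjusted p = 4.1e-07). Angpt1, a vessel growth factor, was lower on both days (−2.17 ± 0.36 and −1.73 ± 0.24, adjusted p = 0.00027 and 3.4e-05), and Cxcr4, a chemokine receptor, fell on day 6 (−2.85 ± 0.12, adjusted p = 7.9e-11). Fabp7, a lipid carrier of radial glia, had 2 and 0 counts in day 6 auxin cells, against 323 and 326 in day 6 controls.

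**Figure D5:**
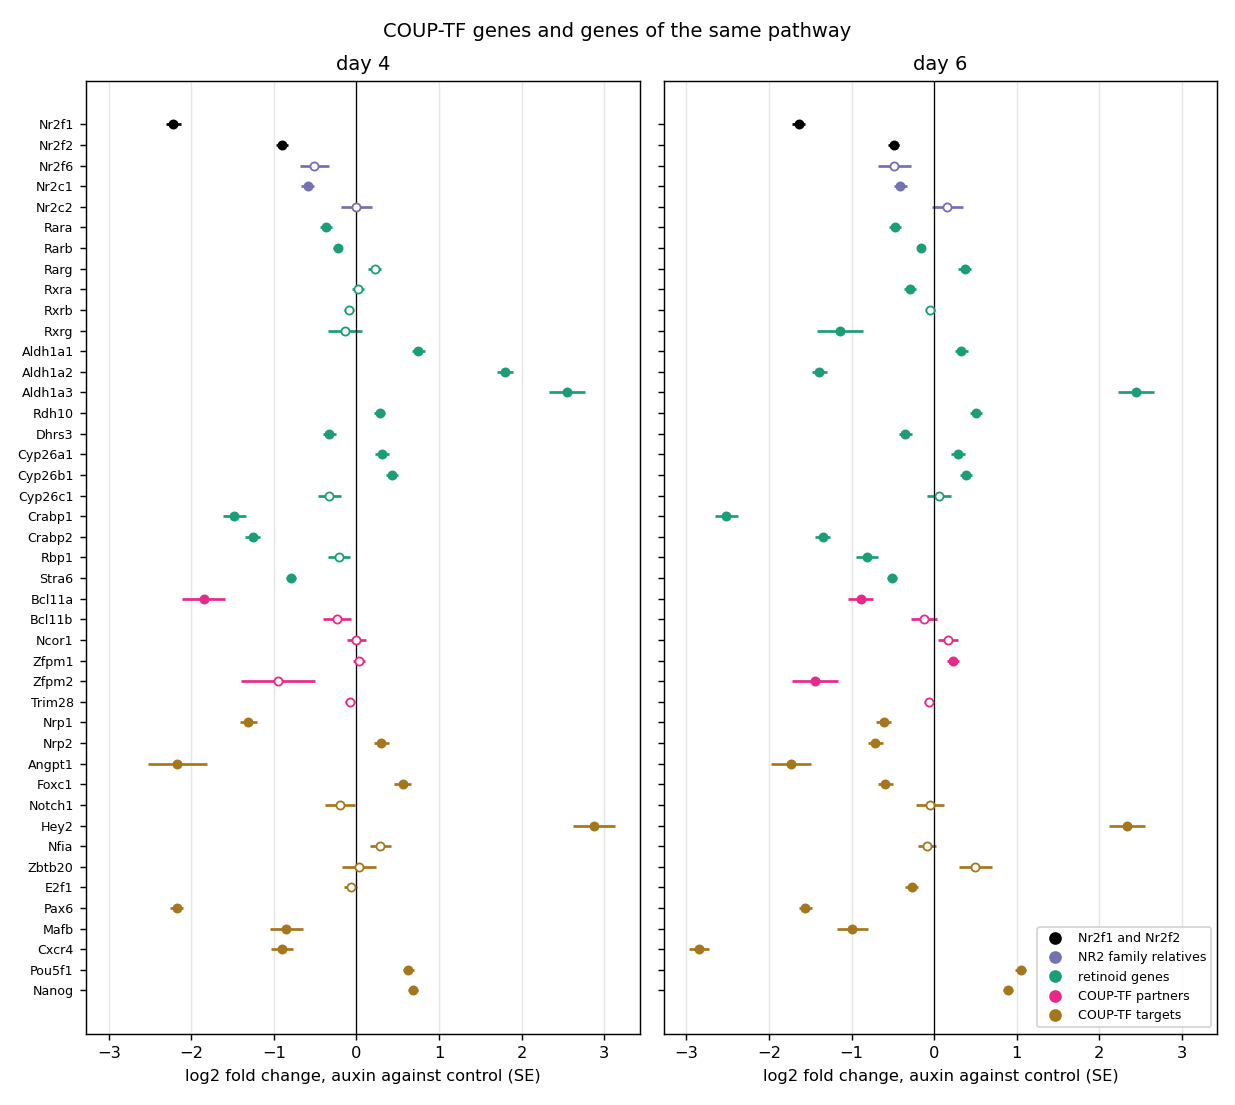
Log2 fold change with SE, auxin against control, on days 4 and 6, for Nr2f1 and Nr2f2, 3 NR2 relatives, 18 retinoid genes, 6 partners and 14 reported targets. Filled points passed at an adjusted p below 0.05 and open points did not, and Nr2e1, Nr2e3 and Fabp7, with counts at or near 0 in at least 1 group, are left out.

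Markers of several cell types differed between auxin cells and controls as well. The lists overlap with the COUP-TF targets above. Pax6 and Fabp7 are also neural progenitor markers, and Pou5f1 and Nanog are also pluripotency markers. Over all genes 11.8% were higher and 11.8% lower on day 4, and 14% higher and 15.2% lower on day 6. In bulk RNA, fewer cells of a type and less RNA per cell cannot be told apart. The summed level of 12 neural progenitor markers was 186 and 198 CPM in day 4 auxin cells, against 357 and 370 CPM in day 4 controls, and 198 and 201 CPM in day 6 auxin cells, against 328 and 340 CPM in day 6 controls. Of these markers 10 were lower and 1 higher on day 4, and 10 lower and 2 higher on day 6. Of 8 neuron markers 7 were lower on day 4 and 8 on day 6. Their sum was 32.1 and 32.0 CPM in day 6 auxin cells, against 296 and 308 CPM in day 6 controls. It was also 217 and 277 CPM in ES cells at 0 h, so the sum does not by itself measure neurons. The 7 pluripotency markers went the other way, with 5 higher on day 4 and 6 on day 6, and summed to 757 and 753 CPM in day 4 auxin cells, against 446 and 445 CPM in day 4 controls. After washout the neural progenitor markers went both ways. In day 4 washout cells 3 were higher and 6 lower than in day 4 auxin cells (median −0.60). They were 3 higher and 3 lower than in day 6 auxin cells (median 0.32), and 2 higher and 9 lower than in day 6 controls (median −2.40). Of the neuron markers, 6 were higher and 1 lower in day 4 washout than in day 4 auxin cells (median 1.30). Against day 6 auxin cells 7 were higher and 0 lower (median 0.90), and against day 6 controls 0 higher and 8 lower (median −3.03). Over all genes 45.2%, 34.6% and 33.9% changed in these comparisons, in that order. Against day 6 auxin cells 17.3% of all genes were higher and 17.3% lower, so the counts of neural progenitor markers there are near background. Both COUP-TF genes rose between day 4 and day 6 controls, where 26.7% of all genes changed. There 2 neural progenitor markers were higher and 6 lower (median −0.43). All 8 neuron markers were higher (median 2.66), and 0 pluripotency markers were higher and 6 lower (median −0.77). The part of these markers in the COUP-TF result was not tested.

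Mesenchyme and endothelium, where Nr2f2 is known to be active, gave mixed values. The 10 mesenchyme markers summed to 456 and 453 CPM in day 4 auxin cells, against 393 and 400 CPM in day 4 controls, with 2 higher and 4 lower and a median log2 fold change of −0.24. Those sums were 733 and 735 CPM in day 6 auxin cells, against 843 and 817 CPM in day 6 controls, with 1 higher and 7 lower. In day 4 washout cells they reached 949 and 915 CPM. Of the mesenchyme markers 8 were higher and 1 lower there than in day 6 auxin cells (all genes 17.3% and 17.3%). Nr2f1 rose in that comparison and Nr2f2 did not pass. Between day 4 and day 6 controls, where both COUP-TF genes rose, 9 mesenchyme markers were higher and 0 lower (median 2.62). The 7 endothelial markers summed to 111 and 115 CPM in day 4 auxin cells, against 62.6 and 65.0 CPM in day 4 controls. Of them 1 was higher and 1 lower, near the background share, with a median of −0.32. Their sum was already 235 and 207 CPM in ES cells at 0 h, so it does not by itself measure endothelium. The 7 endoderm markers summed to 679 and 644 CPM in day 4 auxin cells, against 599 and 607 CPM in day 4 controls. Of them 2 were higher and 1 lower. Between day 4 and day 6 controls 3 endothelial markers were higher and 3 lower, and 3 endoderm markers higher and 4 lower. Emcn was at 0 in both libraries of day 4 auxin cells, and none of the other markers in these 6 lists was at 0 in both libraries of any day 4 or day 6 group.

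The genes whose group means ran most like each COUP-TF gene were ranked by Pearson correlation of log2(mean CPM + 0.5) among 13294 genes that reached 5 CPM. Over the 12 groups the 5 nearest to Nr2f1 were Shisa3 (0.9952), Sh3pxd2b, Dchs1, Zfp558 and Hoxc6 (0.9895). The 5 nearest to Nr2f2 were Wls (0.9954), Dtx4, Afp, Ctdsp1 and Hoxc8 (0.993). Over the 8 differentiation and washout groups the gene nearest to Nr2f1 was its overlapping transcript A830082K12Rik (0.9963), and the one nearest to Nr2f2 was Zfand3 (0.9993). Nr2f1 and Nr2f2 correlated with each other at 0.9744 over 12 groups, where Nr2f2 ranked 106 from Nr2f1 and Nr2f1 ranked 146 from Nr2f2. The points share libraries, 8 of the 12 groups lie on 1 differentiation course, and the lists changed with the measure.

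The auxin and control groups of days 4 and 6 entered this ranking, so the auxin differences of the nearest genes follow in part from how they were chosen and are given as a description. Shisa3, which encodes an inhibitor of Wnt and FGF receptors, had 7.80 and 7.59 CPM in day 4 auxin cells, against 49.9 and 51.0 CPM in day 4 controls. The log2 fold change of Hoxc6, a trunk patterning factor, was −1.58 on both days. Near Nr2f2, Dtx4, an E3 ligase of the Notch pathway, had log2 fold changes of −1.03 on day 4 and −0.66 on day 6. Wls, the carrier that lets cells secrete Wnt proteins, stood at −0.50 on day 4 and −0.04 on day 6, and Zfand3 at −0.09 on both days.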

How the data were processed

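RNA-seq of CTCF-degron F123 mouse ES cells gave 24 libraries in 12 groups of 2, grouped by their titles. The authors deposited raw read counts per gene, whole numbers with no normalization. STAR, HTSeq, edgeR and mm10 are named in the submitters' processing notes, while versions, gene annotation and strand setting were not given in the sources used here. The 1 row with a blank name did not enter library totals or tests. Of counts from 1 to 20, 59.6% to 78% per library were even, so counts halved and rounded down were tried.

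Counts were fitted in R 4.3.3 with the quasi-likelihood test of edgeR 4.0.16, with a mean per group, scaling by the trimmed mean of M-values and filterByExpr (minimum count 10, minimum total 15). The 16 differentiation and washout libraries (22587 genes, common dispersion 0.0051), the 8 ES libraries (20361 genes, 0.134) and all 24 (23831 genes, 0.0439) were fitted as sets, and p-values were adjusted by Benjamini-Hochberg over all genes. Intervals are t intervals of the model. The fit was tested on simulated data holding known fold changes. CPM used scaling over all 24 libraries. DESeq2 1.42.0 was an alternative.

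Coordinates and exon lengths come from GENCODE vM21 by symbol, and 91.8% of named genes had 1 match. Promoters come from RefSeq. The members, gene lists and comparisons were chosen with earlier results of these data known. Named genes are up to 4 members of each list with the largest called changes, neighbours within 2 Mb, and the 5 genes most like each member. Slf1, Fam172a, Nr2f6, Rarb and Zfand3 are given as values, and Rarb, Cyp26a1 and Cyp26b1 were chosen after their values were seen. One gene of a list is not reported here.

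Replicate numbers were checked by correlating replicate differences between groups. All 6 ES pairs exceeded 0.1 (0.183 to 0.736), so ES libraries of the same number shift together. The 28 differentiation pairs ran from −0.201 to 0.159. Replicate 1 was shallower than replicate 2 in every ES group, so paired cultures and depth cannot be told apart. ES effects are from the fit without a replicate block unless stated. Depth limits Nr2f1 in ES cells to 2 to 27 counts, and intervals cover only the spread between these samples.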

Additional observations from a re-analysis of the deposited data

Results flagged for a closer look

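The auxin effect on Nr2f1 was stronger on day 4 than on day 2, by a log2 difference of −2.14 ± 0.15 (interaction contrast in edgeR, adjusted p = 1.9e-07). The same difference for Nr2f2 was −0.77 ± 0.12 (adjusted p = 0.00077). Between days 6 and 4 the effects differed by 0.59 ± 0.11 for Nr2f1 (adjusted p = 0.0067) and by 0.41 ± 0.10 for Nr2f2 (adjusted p = 0.026), so both effects were smaller on day 6. Of these 4 differences, the first alone passed when all 24 libraries shared an estimate of spread (adjusted p = 0.0064).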

How the results depend on the processing

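Of the alternative values of the member comparisons, 243 kept direction and side of the threshold, 10 lost the call, 5 gained one and 1 changed sign; leaving out single libraries gave 157, 9, 3 and 7. With 1 spread for all 24 libraries, Nr2f2 lost its calls for auxin on day 4 (−0.89) and day 6 (−0.48), for day 6 against day 4 controls (0.72), for day 4 washout against day 6 controls (−0.48) and for the effect differences between days 4 and 2 (−0.74) and 6 and 4 (0.42). In that fit Nr2f1 lost day 4 washout against day 6 controls (−0.39), day 6 against day 4 washout (−0.35) and the day 6 minus day 4 difference (0.59), and Nr2f2 in day 4 washout against day 6 auxin cells turned to −0.002. This fit takes in the ES libraries, whose replicates differ more. DESeq2 called Nr2f2 in day 6 washout against day 6 auxin cells (0.18) and the day 4 minus ES 96 h difference of Nr2f1 (−1.86) and Nr2f2 (−1.68), as did the fit with no filter on low counts for that difference (−1.91 and −1.70). At a threshold of 0.01 the Nr2f2 day 6 minus day 4 difference (0.41) was not called. The cause was not tested in these cases.

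Without single libraries, auxin on day 2 ran from −0.22 to 0.04 for Nr2f1 and −0.33 to 0.0001 for Nr2f2, and day 4 washout against day 6 auxin from −0.02 to 0.06 for Nr2f2. Day 6 against day 4 washout ran from −0.44 to −0.27 for Nr2f1, and the day 6 minus day 4 difference from 0.35 to 0.47 for Nr2f2. In ES cells the Nr2f1 range was −0.34 to 2.39 at 24 h, −1.41 to 1.34 at 48 h and −0.93 to 1.82 at 96 h, and the Nr2f2 range at 24 h was −0.66 to 1.13. The Nr2f1 day 4 minus ES 96 h difference ran from −4.10 to −1.33.

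The replicate block changed no call of either gene. In ES cells, where libraries of the same number shift together, it called 23, 40 and 621 genes in place of 0. Counts of called genes dropped with all 24 libraries in 1 fit, to 313 in place of 4126 for auxin on day 2, 803 in place of 5318 on day 4 and 1564 in place of 6588 on day 6, and likewise to 5746 for day 4 against day 2 controls (11757), 1606 for day 4 washout against day 6 auxin (7823), 2337 for day 6 washout against day 6 auxin (9097) and 73 and 30 for the effect differences (2237 and 958). Single libraries left out gave 2214 to 7719 genes on day 2, the highest without replicate 2 of the auxin cells, 3320 to 3739 on day 4, 1218 to 6326 for the day 4 minus day 2 difference (highest without that same library), 506 to 559 for day 6 minus day 4, and 49 to 691 in place of 294 for day 4 minus ES 96 h (lowest without replicate 1 of the day 4 controls). Depth limits Nr2f1 in ES cells, where 2 to 27 counts per library leave intervals of several log2 units.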
